A study of Mus musculus with 9 samples.

Results

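The core promoters of protein-coding genes are the stretches of accessible chromatin at transcription start sites. Overlapping or touching ATAC-seq peaks of all 9 libraries on chromosomes 1 to 19 were merged, and a merged region was kept where at least 2 of the 3 libraries of any line had a peak. Of 95142 such regions, 12366 overlapped the 500 bp either side of a protein-coding start site in the GENCODE M21 annotation (mm10) and are called core promoter regions here, and the other 82776 lay elsewhere. They covered 12235 of 20722 protein-coding genes (59.0%).

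The libraries were made by Omni-ATAC-seq, in which a transposase inserts sequencing adapters into accessible DNA, from C3H/10T1/2 (CCL-226) cells, a mouse mesenchymal progenitor line. WT was an isogenic control that had received a Cas9 vector without a guide. B10 and G7 were Atrx knockout (KO) clones, 1 from each of a pair of independent guides, made by transient transfection of Cas9 and sorting of single cells. Each line had 3 libraries, and the comparison asked how loss of ATRX changed accessibility. Each KO line was a single clone, so that an effect of the knockout and a trait of the clone cannot be told apart within 1 clone, and both clones were set against the same 3 WT libraries. No label says whether the 3 libraries of a line came from separate cultures, so p-values measure only the spread between these libraries.

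A core promoter is the DNA around the start site on which RNA polymerase II and the general transcription factors assemble. In mammals many promoters, above all those of housekeeping genes, lie in CpG islands, stretches rich in unmethylated CpG that tend to be open in most cell types, whereas CpG-poor promoters are more often tissue-restricted. Many genes have alternative promoters, which give transcripts with different first exons. ATRX is a chromatin remodeller that works with DAXX to deposit the histone variant H3.3, chiefly in heterochromatin.

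The 200 bases before the start site nearest to the peak summit are shown for promoters that represent the main kinds of change. They were read from GRCm38.p6, the assembly behind mm10, and run 5′ to 3′ on the strand of the gene. Capitals mark matches on either strand to these motifs, which can overlap: GGGCGG for the GC box, CCAAT for the box of that name, TATAAA for the TATA motif, CCGGAAG for factors of the ETS family, TGACGTCA for the cAMP response element, TGACTCA with its variant form TGAGTCA for the AP-1 family, and CACGTG for the E box. Slc24a3 and En1 had a peak in every KO and no WT library, and Agrn only in WT. Cdyl was stronger and Gramd1c weaker in both clones, and the promoters of Fgf2 and Crip2 changed in relative accessibility. Pparg, which was added after its values were seen, is the adipogenic regulator.
Slc24a3, chr2:145167554-145167753 (plus strand): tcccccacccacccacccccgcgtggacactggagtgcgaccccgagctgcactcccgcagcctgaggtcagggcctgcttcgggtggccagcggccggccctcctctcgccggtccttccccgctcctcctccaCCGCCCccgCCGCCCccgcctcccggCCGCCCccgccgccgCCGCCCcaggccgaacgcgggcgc
En1, chr1:120602218-120602417 (plus strand): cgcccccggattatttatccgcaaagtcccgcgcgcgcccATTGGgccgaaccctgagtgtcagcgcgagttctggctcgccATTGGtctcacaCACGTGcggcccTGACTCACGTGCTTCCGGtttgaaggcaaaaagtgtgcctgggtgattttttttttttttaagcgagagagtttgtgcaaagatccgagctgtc
Agrn, chr4:156197489-156197688 (minus strand): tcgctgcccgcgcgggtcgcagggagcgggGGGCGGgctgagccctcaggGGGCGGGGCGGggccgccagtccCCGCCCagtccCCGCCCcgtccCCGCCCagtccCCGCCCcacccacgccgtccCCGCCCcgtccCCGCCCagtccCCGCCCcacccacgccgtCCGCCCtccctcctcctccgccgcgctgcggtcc
Cdyl, chr13:35741113-35741312 (plus strand): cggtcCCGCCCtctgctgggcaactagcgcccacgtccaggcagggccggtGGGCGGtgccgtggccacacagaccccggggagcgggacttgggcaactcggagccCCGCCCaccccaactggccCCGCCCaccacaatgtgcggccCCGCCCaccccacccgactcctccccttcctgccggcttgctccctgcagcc
Gramd1c, chr16:44063346-44063545 (minus strand): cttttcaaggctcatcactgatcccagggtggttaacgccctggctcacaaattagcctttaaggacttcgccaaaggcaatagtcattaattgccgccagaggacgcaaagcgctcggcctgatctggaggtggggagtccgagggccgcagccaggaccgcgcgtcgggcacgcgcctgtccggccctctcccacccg
Fgf2 upstream promoter, chr3:37348146-37348345 (plus strand): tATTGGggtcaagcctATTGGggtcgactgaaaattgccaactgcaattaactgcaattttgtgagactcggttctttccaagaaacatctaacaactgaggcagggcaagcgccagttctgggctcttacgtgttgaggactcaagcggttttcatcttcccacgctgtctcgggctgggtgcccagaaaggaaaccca
Crip2 upstream promoter, chr12:113140036-113140235 (plus strand): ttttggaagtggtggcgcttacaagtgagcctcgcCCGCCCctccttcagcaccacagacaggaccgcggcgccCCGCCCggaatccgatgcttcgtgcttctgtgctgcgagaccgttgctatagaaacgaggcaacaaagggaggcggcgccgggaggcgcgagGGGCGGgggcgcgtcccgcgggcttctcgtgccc
Crip2 downstream promoter, chr12:113142608-113142807 (plus strand): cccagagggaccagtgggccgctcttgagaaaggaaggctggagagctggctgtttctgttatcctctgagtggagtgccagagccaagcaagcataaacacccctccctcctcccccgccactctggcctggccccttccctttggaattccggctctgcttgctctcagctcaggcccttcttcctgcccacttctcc
Pparg first promoter, chr6:115360751-115360950 (plus strand): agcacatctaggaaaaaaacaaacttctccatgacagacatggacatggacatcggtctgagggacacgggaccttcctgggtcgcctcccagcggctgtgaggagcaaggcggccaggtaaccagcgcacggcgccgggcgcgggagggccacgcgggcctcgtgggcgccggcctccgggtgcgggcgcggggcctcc
The Agrn stretch held 11 matches to the GC box and the Slc24a3 stretch 4. The upstream Crip2 promoter held 24 CpG and 3 GC boxes, against 3 CpG and no match to any of these motifs in its downstream promoter. Over all 52065 distinct start sites, the same 200 bases held a GC box in 38.3%, a CCAAT box in 28.2%, a TATA box in 8.32%, an E box in 5.55%, an ETS site in 8.10%, an AP-1 site in 2.97% and a cAMP response element in 1.71%.

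The libraries had between 74643 and 86650 peaks on these chromosomes, and no read depth is given in the peak lists. Core promoter regions were more constant than the rest of the accessible genome: 10658 of 12366 (86.2%) had a peak in all 9 libraries, against 43.2% of the other regions. They were also strong. The rank percentile orders the peaks of 1 library by −log10 q, from weak near 0 to strong at 100, and the median rank of core promoters lay between 87.7 and 90.2 in the 9 libraries, against 46.2 to 51.1 for the other regions. The difference was 41.0 ± 0.946 percentile points (SD, n = 9) and positive in 9 of 9 libraries (exact sign-flip permutation test, two-sided p = 0.00391, the smallest it can give). With replicates 2 and 3 only it was 41.3.

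The 3 lines differed little in these totals. Core promoters held 15.4% ± 0.322 of the peaks in WT, 14.2% ± 0.676 in B10 and 15.5% ± 0.320 in G7 (SD, n = 3 each). The B10 share was lower than that of WT by 1.12 percentage points, with no overlap between the libraries of both lines (exact permutation test, two-sided p = 0.1, the smallest that 3 against 3 can give, adjusted p = 0.15 over 3 contrasts), and G7 differed from WT by 0.159 points (exact permutation test, p = 0.7). In total B10 libraries had 79489 to 86650 peaks, against 76479 to 79534 in WT. Their peaks at core promoters overlapped in number, with 11826 to 12060 in B10 and 11948 to 12042 in WT. The number of core promoter regions with a peak was 11658 ± 50.6 in WT, 11512 ± 55.6 in B10 and 11633 ± 30.7 in G7. B10 had 145 fewer than WT (exact permutation test, p = 0.1, adjusted p = 0.15), and G7 25.0 fewer (p = 0.6 in the exact permutation test). None of these contrasts could reach 0.05 with 3 libraries a line.

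Openness followed CpG content, which the choice of members did not use. Of 10826 start sites whose surrounding 1 kb had a CpG observed/expected ratio under 0.2, between 9.45% and 10.5% lay in a region with a peak in a given library. Of 10566 start sites with a ratio of 0.8 or more, 89.8% to 90.9% did. The classes between them rose in order, and the ranges of neighbouring classes did not overlap in any library. Start sites in a core promoter region had a GC box in 56.1%, against 17.1% of the 23715 start sites in none, and a TATA box in 3.91% against 13.6%. The median GC content of the surrounding 1 kb was 59.2% against 48.3%. Whether the motif shares differ beyond base composition was not tested. These are descriptions over start sites, many of which share a region.

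**Figure D1:**
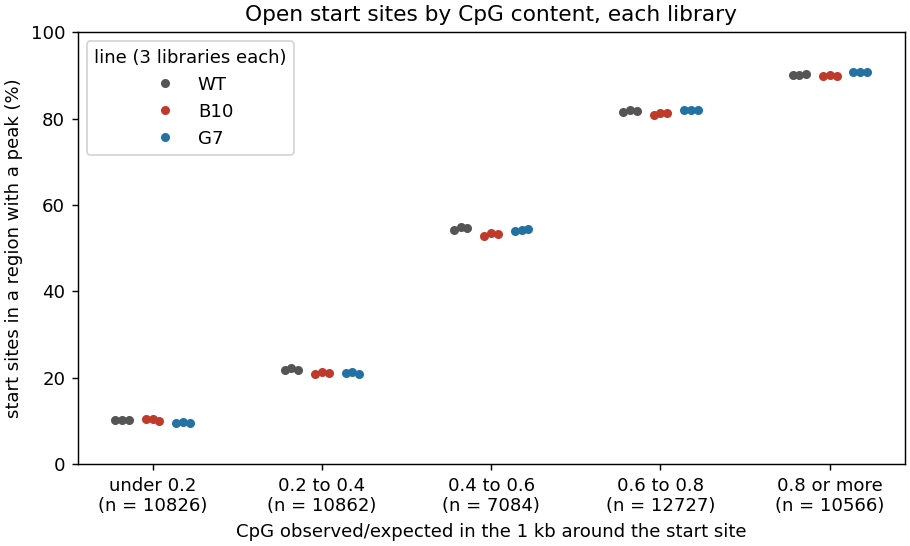
Share of protein-coding start sites that lay in a core promoter region with a peak (vertical axis, percent), by the CpG observed/expected ratio of the surrounding 1 kb (horizontal axis, number of start sites below each class). Each point is 1 library. The share rose from about 10.2% in WT replicate 1 at a ratio under 0.2 to 90.1% at 0.8 or more, and the 3 lines lay close together in every class.

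Regions that held a start site were more constant than those beside one. In 11449 regions the start site lay inside the region, and 89.4% of these had a peak in all 9 libraries. For the 242 regions with their edge 1 to 100 bp from it the share was 42.2%. Core promoter regions with a peak in all 9 libraries were also wider, with a median of 1266 bp against 628.5 bp in the others. A wider region is more likely to hold a start site, and the part of width in this difference was not tested. The 182 regions just inside the limit, with their edge 401 to 500 bp from the nearest start site, had a peak in all 9 libraries in 48.4% of cases, and the 196 regions just outside, at 501 to 600 bp, in 49.5%. Where all 9 libraries had a peak, summits lay a median of 64.0 bp from the nearest start site. Start sites on both strands shared a region in 1124 cases, 1097 of them with a peak in every library.

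Genes of basic cell functions had open promoters almost throughout, and large sensory and epidermal families rarely did. A core promoter region was found for 72 of 75 ribosomal protein genes and 36 of 38 proteasome subunit genes, and for all 19 genes of ATRX partners and heterochromatin factors. Of 1086 olfactory receptor genes 17 had one, of 326 vomeronasal receptor genes 7 and of 110 keratin and keratin-associated protein genes 14. The markers fitted the mesenchymal label: 16 of 20 fibroblast and mesenchymal markers had a core promoter region, 15 of them with a peak in all 9 libraries, against 2 of 10 blood cell, 3 of 10 epithelial, 4 of 10 endothelial and 3 of 10 neural markers.

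**Figure D2:**
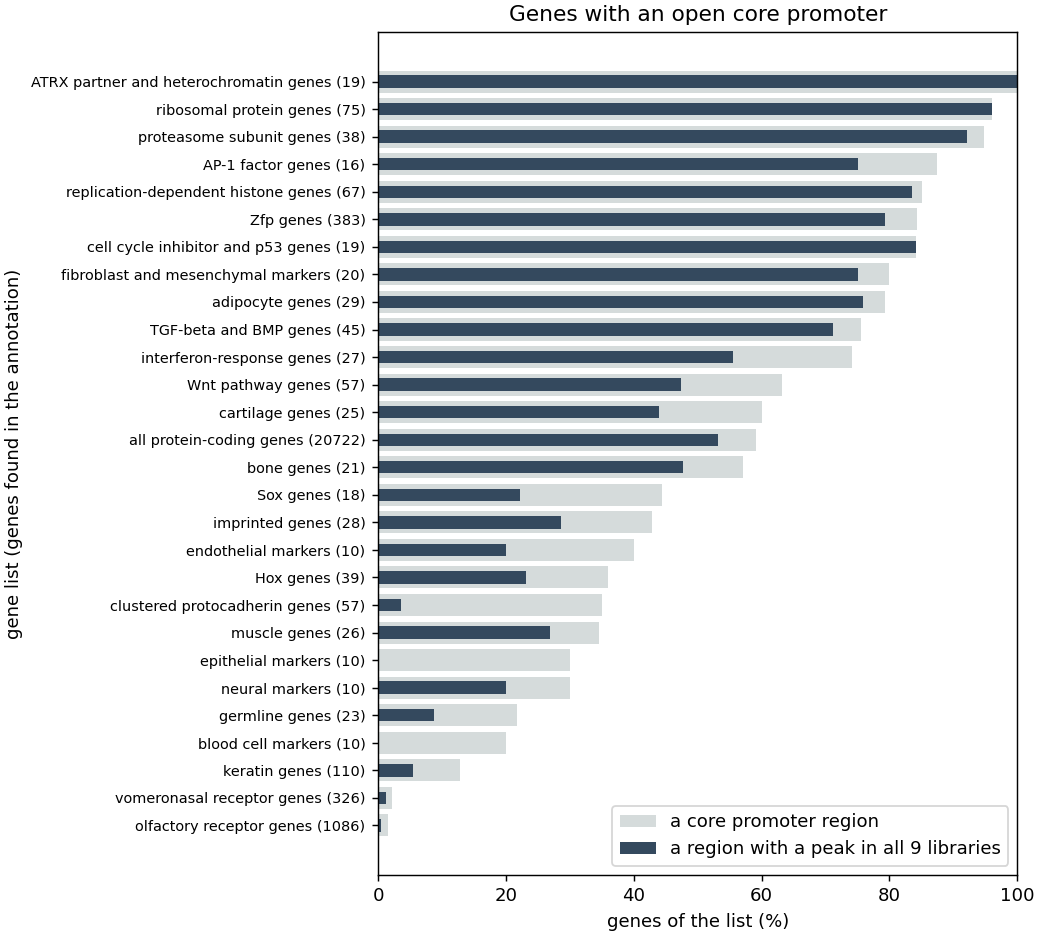
Percentage of the genes of each list (horizontal axis) with any core promoter region (light bars) and with a region that had a peak in all 9 libraries (dark bars), with the number of genes in brackets. The lists run from all 19 ATRX partner and heterochromatin genes to 1.57% of olfactory receptor genes, with 59.0% of all protein-coding genes.

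The targeted gene lies on chromosome X, outside the members. Its promoter was open in all 9 libraries at ranks of 80.8 to 86.0, so that accessibility at the start site did not separate KO from WT, and a peak list cannot show small changes in the coding sequence.

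Presence or absence of a peak changed at few core promoters. Gained means a peak in at least 2 of the 3 libraries of a clone and in 0 of 3 WT libraries, and lost the reverse. These calls have no test. B10 gained 275 core promoters (2.22%, against 10.4% of all 95142 regions) and lost 418 (3.38%, against 7.59%), and G7 gained 272 (2.20%, against 5.61%) and lost 314 (2.54%, against 7.43%). Both clones gained 131 (1.06%, against 2.93% of all regions) and lost 211 (1.71%, against 4.37%). In these 6 cases the share at core promoters was lower than over all regions. Without replicate 1 in every line both clones gained 130 and lost 188, and replicate 1 of each line alone gave 237 and 289.

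Promoters that came and went differed in sequence from the constant ones. The median CpG ratio was 0.738 where all 9 libraries had a peak and 0.341 in the 1708 with a peak in fewer. Of these 1708, it was 0.602 in the 131 gained in both clones and 0.398 in the 211 lost in both. The ratio of those lost in both clones was thus near that of variable promoters in general. That of those gained in both lay between the variable and the constant ones. Of core promoters with a ratio under 0.2, 7.41% were lost in B10 and 7.53% in G7, against 1.41% and 0.503% at 0.8 or more.

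Of the 131 and 211, 84 were gained and 123 lost with the strictest pattern, a peak in every library of one side and in none of the other (0.679% of core promoters, against 1.07% of all regions, and 0.995% against 1.63%). Slc24a3, which encodes a potassium-dependent sodium/calcium exchanger, led the gained ones: its ranks were 89.8, 90.5 and 86.1 in B10 and 87.3, 83.0 and 84.6 in G7, with no peak in WT. Emc9, a subunit of the membrane protein complex of the endoplasmic reticulum, ranked between 68.5 and 79.7 in the 6 KO libraries. The promoter of En1, a homeodomain transcription factor of early patterning, ranked 70.4, 71.3 and 62.1 in B10 and 81.7, 79.8 and 82.6 in G7. That of Sall1, a zinc finger factor of kidney and limb development, ranked between 55.5 and 66.3. Slc35g1, Fam189b, Tpd52l1 and Plce1, a phospholipase C, completed the 8 with the highest lowest rank, and each had a peak in 6 of 6 KO libraries.

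Among the lost promoters the strongest was that of Agrn, the proteoglycan agrin that clusters acetylcholine receptors at the neuromuscular junction, with ranks of 96.7, 91.6 and 95.3 in WT and no peak in any KO library. Its summit lay at -417 bp from the nearest start site, that is upstream. Oxr1, an oxidation resistance gene, had ranks of 89.5, 91.2 and 91.6 in WT at 1 of its promoters, while another of its promoters had a peak in all 9 libraries. Rnls, the oxidase renalase, ranked 93.0, 89.9 and 87.2 in WT, and Rgs7, a regulator of G protein signalling, 82.6, 80.2 and 81.7. None of these 4 was listed in any KO library. Plagl1, an imprinted zinc finger gene, ranked 79.5, 74.3 and 75.7, and Ankef1, Cgnl1 and Slc6a15 between 73.1 and 82.1. The Slc6a15 summit lay 1393 bp downstream of the nearest start site, in a wide region, and the calls of Ankef1 and Plagl1 rest on a start site that is not the 5′ end of the gene.

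**Figure D3:**
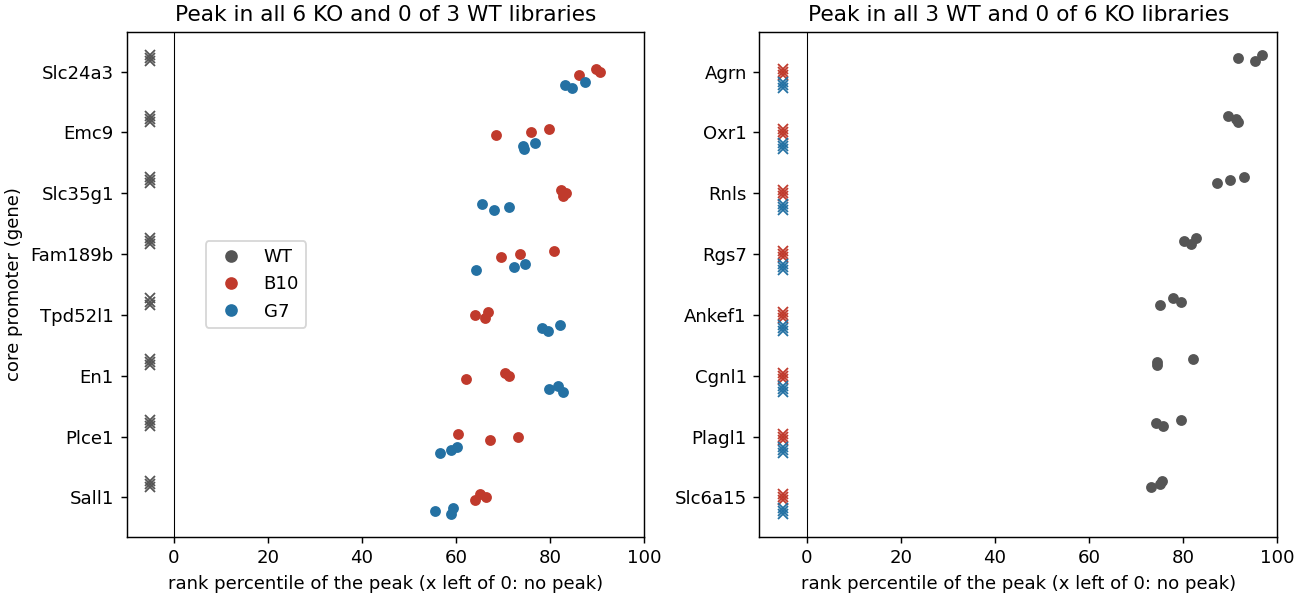
Rank percentile of the peak in each library (horizontal axis) for the 8 core promoters gained in both clones (left) and the 8 lost in both (right) with the highest lowest rank. Points are libraries, grey WT, red B10 and blue G7, and crosses left of 0 mark libraries without a peak. Gained promoters ranked between 55.5 and 90.5 in KO libraries, and lost promoters between 73.1 and 96.7 in WT.

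At some promoters 1 clone stood apart from the other lines by presence, again without a test. A peak in all 3 B10 libraries and in none of the other 6 was found at 52 core promoters (0.421%, against 2.02% of all regions), and in all 3 G7 libraries only at 68 (0.550%, against 0.426%). Ptchd4 led the first with ranks of 91.5, 92.2 and 92.4 in B10, and Pfn4, a profilin, led the second with 90.3, 89.1 and 86.2 in G7. Ppara, a nuclear receptor of fatty acid oxidation, ranked 72.3, 74.0 and 73.7 in G7. Conversely, 95 core promoters lacked a peak only in the 3 B10 libraries (0.768%, against 0.465% of all regions) and 29 only in the 3 G7 libraries (0.235%, against 0.491%). The share at core promoters was thus above that over all regions for peaks found only in G7 or missing only in B10, and under it in the other 2 cases. Onecut2 was of the first kind, ranking 93.1, 89.2 and 88.8 in WT and 85.5, 83.2 and 83.8 in G7, and Saysd1 of the second, with 79.6 to 84.7 in the other 6 libraries.

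Strength was compared at the 10658 core promoters with a peak in all 9 libraries by limma on quantile-normalised log2 fold enrichment, fitted over all 46449 such regions, with a Benjamini-Hochberg adjusted p under 0.05. B10 had 151 stronger core promoters (1.42%, against 3.26% of all regions) and 200 weaker (1.88%, against 3.29%). G7 had 106 stronger (0.995%, against 1.5%) and 70 weaker (0.657%, against 1.36%). Both clones had 68 stronger (0.638%, against 1.01%) and 33 weaker (0.310%, against 0.568%). With the replicate number as a block, the counts rose to 395 and 363 in B10, 269 and 173 in G7 and 159 and 86 in both. With replicates 2 and 3 only they were 195 and 221, 114 and 77, and 69 and 44. The balance in B10 was not stable: it turned with the block, without WT replicate 1 (255 stronger and 201 weaker) and with ranks in place of fold enrichment (1151 and 642). Ranks gave 680 and 663 in G7.

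Most core promoters moved little. The median log2 difference from WT was 0.04 in B10 and 0.03 in G7, against -0.01 in both for the other regions, and the median SD between libraries of a line was 0.08 on the log2 scale at core promoters and 0.18 elsewhere.

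Cdyl, which encodes a chromodomain protein that binds repressive histone marks, had the largest rise by the smaller change of both clones. Its ranks were 9.90, 30.3 and 22.7 in WT, 89.9, 88.8 and 85.4 in B10 and 87.8, 83.7 and 85.9 in G7. Its log2 fold enrichment was higher by 1.56 ± 0.17 in B10 and 1.53 ± 0.17 in G7 (SE, limma adjusted p = 0.00139 and 0.00325). The KO libraries did not overlap those of WT. Rora, a nuclear receptor of the circadian clock, rose by 1.34 ± 0.21 and 1.09 ± 0.21. Acot2, a mitochondrial acyl-CoA thioesterase, ranked between 18.7 and 33.1 in WT and between 86.5 and 94.9 in the KO libraries. Frmd5, Rasgef1b, Mtss1 and Pard6g also rose in both clones, by between 1.07 and 1.33.

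Gramd1c, a carrier of cholesterol between membranes, had the largest fall among named genes by the smaller change of both clones. Its ranks were 84.8, 82.3 and 82.9 in WT, 41.3, 28.2 and 15.7 in B10 and 23.2, 15.5 and 20.6 in G7, and its log2 fold enrichment fell by 1.55 in B10 and 1.75 in G7 (SE 0.19 in each, limma adjusted p = 0.00248 and 0.00328). Slc27a1, a fatty acid transporter, fell by 1.18 and 1.08, with ranks of 88.0 to 91.0 in WT and 40.1 to 56.5 in the KO libraries. Tnfsf10, the death ligand TRAIL, fell by 1.36 and 1.04, and Cd38, an NAD glycohydrolase, by 1.11 and 1.23. Their KO libraries all ranked below those of WT. Tmem141, Nkain3, Trim54 and Nkpd1 completed the 8.

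**Figure D4:**
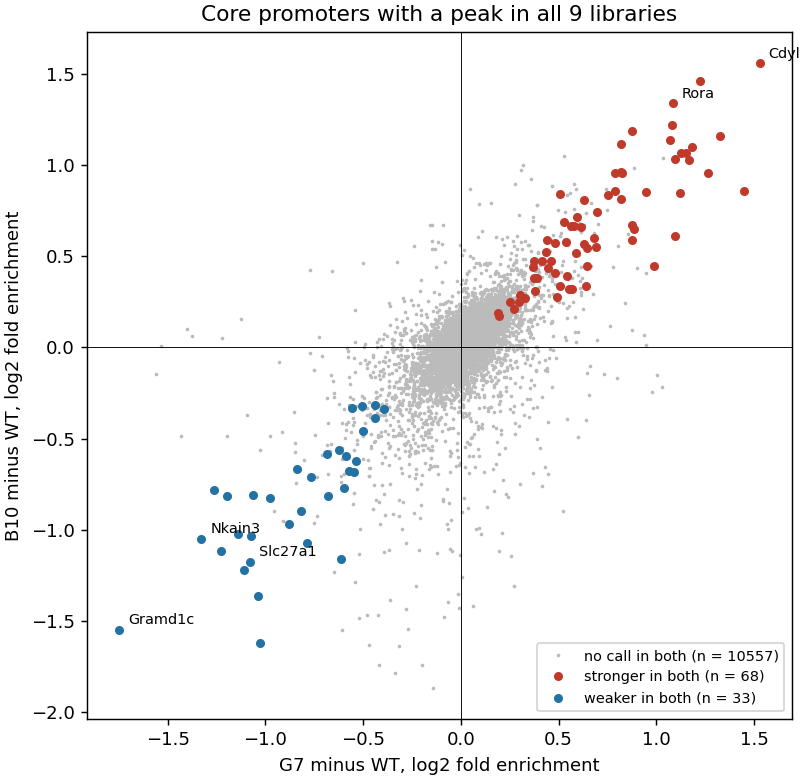
Difference in log2 fold enrichment from WT in B10 (vertical axis) and G7 (horizontal axis) for the 10658 core promoters with a peak in all 9 libraries. Red points were stronger in both clones (68), blue points weaker in both (33) and grey points neither. Both axes use the same WT libraries.

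No core promoter was called in opposite directions in the clones by limma at an adjusted p under 0.05. At an unadjusted p under 0.05, 26 of 10658 were. The same WT libraries enter both contrasts, which by itself makes opposite calls less likely. The contrast of the clones themselves called 30 core promoters stronger in B10 than in G7 (0.28%, against 0.745% of all regions). It called 113 weaker (1.06%, against 0.999%), which is near the share over all regions. With the block these were 80 and 194, and with ranks the balance turned to 509 and 396.

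Within genes, relative use of alternative promoters here means their relative accessibility. It was measured as the difference in log2 fold enrichment between the upstream and downstream promoter, which cancels whatever acts on both. Transcripts were not examined, so these values do not show which start site was transcribed. At least 2 core promoter regions were found for 1189 genes, and 773 pairs had a peak in all 9 libraries at both. Use shifted toward the upstream promoter in 25 pairs in B10 (3.23%), 29 in G7 (3.75%) and 17 in both (2.2%). It shifted toward the downstream promoter in 33 pairs in B10 (4.27%), 24 in G7 (3.1%) and 13 in both (1.68%). These percentages are also the background, since only promoter pairs were tested. With the block the counts were 64, 59 and 36 toward upstream and 60, 49 and 30 toward downstream.

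Crip2, a LIM domain gene, had the largest shift by the smaller change of both clones. The difference was -1.08, -1.06 and -1.16 in WT, 0.35, 0.38 and 0.52 in B10 and 0.07, 0.51 and 0.23 in G7, so that the stronger promoter was the downstream one in WT and the upstream one in the clones. The change was 1.52 ± 0.11 in B10 and 1.37 ± 0.11 in G7 (SE, limma adjusted p = 7.36e-05 and 0.000197). The regions of its CpG-rich upstream and CpG-poor downstream promoter started 1708 bp apart. In Fgf2, a growth factor of mesenchymal cells, use moved the other way: the difference was 0.34, -0.04 and 0.87 in WT, -1.02, -1.09 and -1.37 in B10 and -0.81, -0.77 and -0.85 in G7. It fell by 1.55 in B10 and by 1.20 in G7 (limma adjusted p = 0.000964 and 0.00582). Frmd5 shifted toward its upstream promoter, by 1.36 and 1.16. Wipf1, which regulates the actin cytoskeleton, Gtf2ird1 and Jdp2, an AP-1 family repressor, shifted toward the downstream one, with changes of -1.27 and -1.14, -1.12 and -1.07, and -0.99 and -0.99 in B10 and G7.

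**Figure D5:**
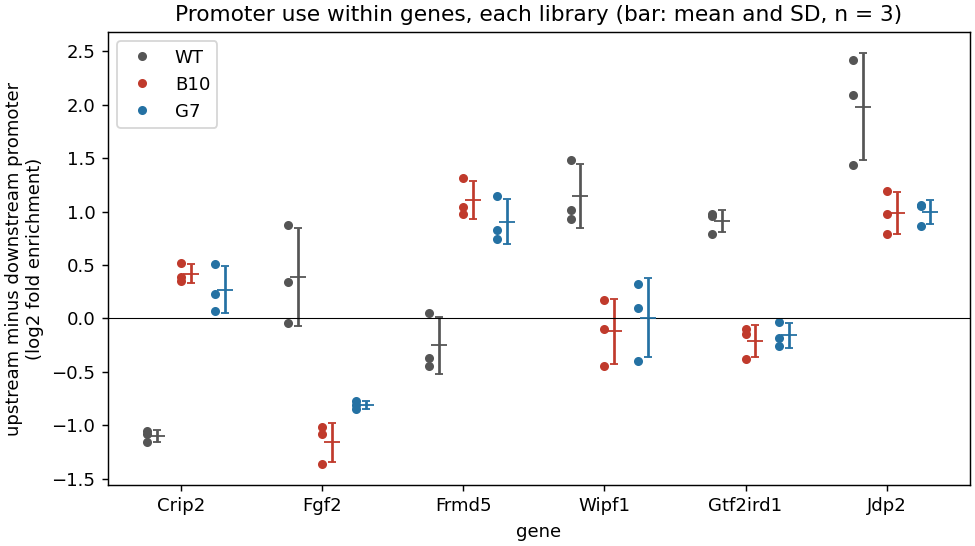
Log2 fold enrichment of the upstream minus the downstream promoter (vertical axis) in each library for the 6 named genes with the largest change in both clones. Points are libraries, and bars give the mean and SD of 3 libraries. The WT libraries of Crip2 lie below 0 and its KO libraries above 0, and those of Gtf2ird1 the other way.

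Full switches, with 1 promoter gained and another lost in the same gene and clone, were rare and have no test: 3 genes in B10, 5 in G7 and 0 in both. In Bscl2, the lipodystrophy gene seipin, both clones lost a promoter with WT ranks of 57.8, 60.5 and 49.7, and G7 alone had a peak at another with ranks of 26.6, 31.4 and 20.7. In Celsr3, an atypical cadherin, B10 lost a promoter with WT ranks of 61.5, 50.8 and 55.6 and gained another at 21.5, 15.6 and 34.9. Zbtb38 and Elmo1 in B10, and Sorbs2, Nhsl1 and Sh3bgr in G7, gained promoters that ranked at 29.1 or less in that clone, and 1 predicted gene completed the 8. In 27 genes both clones gained a promoter while another was open in all 9 libraries, among them Lifr and Utrn. The gained Utrn promoter had a peak in only 2 of 3 libraries of each clone, at ranks of 17.7 to 35.4. In 32 genes both clones lost one while another was open in all 9, among them Col18a1 and Akt2. The lost Akt2 promoter had a peak in only 2 WT libraries, at ranks of 38.2 and 0.55. Fgfr2 is also counted, but its constant region, at chr7:133121562, is named for another gene. It lies far from the lost one at chr7:130265009.

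Of 27 core promoter regions of adipocyte genes, 1 was gained and 1 lost in B10, and 0 were gained or lost in G7. Over all core promoters these shares were 2.22% and 3.38% in B10 and 2.20% and 2.54% in G7. Of 24 adipocyte regions tested by limma, 0 were called stronger or weaker in either clone. Over all core promoters 1.42% were stronger and 1.88% weaker in B10, and 0.995% and 0.657% in G7. Such shares give few or no calls among 24 regions. Relative promoter use is a separate measure. By it Ppargc1a, a gene of this list, shifted toward its upstream promoter, by 0.82 in B10 and 0.81 in G7 (limma adjusted p = 0.00149 and 0.00274). Cd36, a fatty acid transporter, had a peak only in B10, at ranks of 70.2, 61.7 and 65.3. Pparg, the nuclear receptor that drives adipogenesis, showed a large difference that the calls miss: its first promoter ranked 9.90 and 20.8 in 2 WT libraries and had no peak in the third, and ranked 87.1, 85.2 and 82.4 in B10 and 84.3, 83.1 and 83.4 in G7. All 6 KO libraries lay far above WT, and since WT had 2 peaks it was neither called gained nor tested for strength. Its second promoter, which serves the adipocyte-specific isoform, was open in all 9 libraries at ranks of 28.9 to 67.8 and differed by 0.18 ± 0.28 and -0.20 ± 0.28 (limma adjusted p = 0.755 and 0.776). Cebpa and Sox9 ranked at 78.7 or more in every library with no call, and both Runx2 promoters had a peak in all 9 libraries with no call. No core promoter region was found for Lpl, Fabp4 or Myod1.

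Among other lists, 4 of 17 Hox regions were lost in both clones, at Hoxb13, Hoxb6 (2 regions) and Hoxa6, and Hoxc6 was weaker in both, by -0.78 and -1.26. The Hox promoters lost were weak in WT, with ranks of at most 39.7. Of 20 clustered protocadherin regions, 7 of the Pcdhb genes were lost in both clones, Pcdhga11 and Pcdhga12 were gained, and Pcdhgb7 was stronger by 0.61 and 1.10. The lost Pcdhb promoters ranked between 3.29 and 50.7 in the WT libraries with a peak. Over all core promoters 1.71% were lost and 1.06% gained in both clones. Of 345 Zfp regions, 4 were gained and 2 lost in both. Of 39 Wnt pathway regions, Lgr5 and Fzd9 were gained and Axin2, with WT ranks of 66.2, 62.5 and 68.9, was lost. Imprinted Grb10 was gained in both clones. The upstream promoter of the tested Gnas pair was stronger in both, by 0.67 ± 0.13 and 0.88 ± 0.13. The downstream Gnas promoter differed by -0.21 and -0.37. Use thus shifted toward the upstream one, by 0.88 in B10 and 1.25 in G7 (limma adjusted p = 0.00201 and 0.000276).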

How the data were processed

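ATAC-seq peak lists of 9 libraries were analysed. Per the study's methods, the authors checked reads with Rfastp, aligned them to mm10 with Rsubread and called peaks per library with MACS2 in paired-end mode (version not given in the sources used here). The deposited lists give each peak's fold enrichment (a ratio to background) and −log10 q, and hold no read counts. The depth of each library is not given in the sources used here, and a missing peak can be a signal below the threshold. Region strength was the value of the strongest peak in a region. Regions with a peak in all 9 libraries were compared by limma 3.58.1 (R 4.3.3) on quantile-normalised log2 fold enrichment, tested on simulated data first. Shares were compared by exact permutation tests (scipy). The same-numbered libraries of different lines deviated together (correlations of 0.23 to 0.588 over all regions, from the data, not the labels), so counts with the replicate number as a block are given.

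Members, gene lists and the naming rule were chosen with earlier results of these data known. Named promoters were the 8 with the highest lowest rank (gained, lost), the 8 with the largest smaller difference of both clones (stronger, weaker), the 6 genes with the largest change in use, all switched genes, the 4 strongest for each clone (fewer are printed), list genes called in both clones (fewer are printed) and a fixed set of lineage genes. Predicted models were counted, not named. A few genes that the rule names are not reported here. A region was named by the start site nearest to its summit, and windows, peak thresholds, scaling and each library were varied.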

Additional observations from a re-analysis of the deposited data

Results flagged for a closer look

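The contrast of B10 against G7 singled out promoters at which the clones, set against the same WT libraries, differed by limma. The 3 with the largest difference in each direction are given, chosen after their values were seen. Cacnb2, a calcium channel subunit, was higher in B10 by 1.54 (SE 0.20, adjusted p = 0.0064), with log2 differences from WT of 0.01 in B10 and -1.54 in G7. Vegfc, a lymphatic growth factor, was higher in B10 by 1.502 (SE 0.13, limma adjusted p = 0.00127), where B10 libraries ranked 63.7 to 69.6 and G7 libraries 3.45 to 11.4. Oas1c, of the interferon-response family, was higher in B10 by 1.44 (SE 0.14, limma adjusted p = 0.00224). In the other direction Kif17, a kinesin, differed by -1.73 (SE 0.17, limma adjusted p = 0.00207), where B10 libraries ranked 8.90 to 29.6 and G7 libraries 77.0 to 79.6. Pdgfd, a platelet-derived growth factor, differed by -1.58 (SE 0.17, limma adjusted p = 0.00342) and Gm2a, a ganglioside activator protein, by -1.55 (SE 0.18, limma adjusted p = 0.0042). At each of these 6 promoters 1 clone was called weaker than WT and the other was not called, and all 6 were also called with the block.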

How the results depend on the processing

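With the replicate block, B10 had 395 stronger and 363 weaker core promoters, G7 269 and 173, both clones 159 and 86 and B10 against G7 80 and 194, and use shifted in 64 and 60 pairs in B10, 59 and 49 in G7 and 36 and 30 in both, so the pairing changed counts but reversed no named call. Permuted within replicate numbers, the share of peaks differed by -1.12 points (B10), 0.159 (G7) and -1.28 (B10 against G7), and regions by -145, -25.0 and -120, with exact permutation p of 0.25 or more. Quantile normalisation within core promoters gave 315 weaker in B10, 191 and 174 in G7, 111 and 78 in both and 77 and 171 between the clones. Ranks gave 1151 and 642 in B10, 680 and 663 in G7, 425 and 190 in both and 509 and 396 between the clones, and 56, 38 and 21 downstream shifts in B10, G7 and both. Imputation from 6 or more libraries gave 253 and 337, 222 and 118, 160 stronger in both, and 69 and 245 between the clones. Replicates 2 and 3 gave 46 upstream and 52 downstream shifts in B10 and 23 downstream in both. Here and in the next paragraph, counts are given only where they moved by a factor above 1.5. The cause of these changes was not tested.

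A peak in 3 of 3 against 0 of 3 gave 181 gained in B10, 175 gained and 185 lost in G7, 84 and 123 in both, 2 switched genes in G7, and 13 and 17 genes with a gained or lost alternative promoter in both. Present peaks with −log10 q of 10 or more gave 135 and 229 in B10, 132 and 154 in G7 and 67 and 93 in both. A window of 1000 bp gave 12 switched genes in B10, 2 in both, and 51 and 61 with gained or lost alternatives. With 1 start site a gene B10 gained 177. Replicate 1 alone gave 427 gained in G7 and 237 in both. With an equal number of peaks the G7 share was -0.101 points from WT (exact permutation p = 0.2).

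Leaving out each library in turn, gained core promoters ranged over 200 to 373 for clone B10, 200 to 337 for clone G7 and 106 to 181 for both, and lost ones over 302 to 490, 212 to 392 and 138 to 239. Stronger ones ranged over 66 to 255, 39 to 160 and 29 to 103, weaker ones over 101 to 202, 28 to 66 and 8 to 33, and those between the clones over 13 to 30 stronger and 43 to 120 weaker. Upstream shifts ranged over 18 to 36, 15 to 38 and 10 to 23 and downstream shifts over 19 to 40, 8 to 34 and 6 to 18. Switched genes ranged over 3 to 6 in B10 and 2 to 5 in G7, and alternatives gained or lost in both over 20 to 52 and 19 to 37 genes. The G7 share of peaks ranged from -0.0238 to 0.311 points from WT, and its number of regions from -49.3 to 1.17.

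Named results other than counts held their direction in all but 5 cases. With ranks these were Zfp882 in B10 (-0.279 percentile points) and use of Phldb1 (-6.12 in B10, -5.94 in G7). With imputation it was Col2a1 (-0.65 and -0.44 on the log2 scale). In the main fit Col2a1 was called stronger by 0.32 in B10 and 0.57 in G7, with WT ranks of at most 14.8. Use of Phldb1 there shifted toward its upstream promoter, by 0.49 and 0.40. Zfp882 there had log2 values of 3.77 to 3.83 in WT and 4.04 to 4.09 in B10. Over all alternatives 92 named strength values fell short of the threshold, beside 943 values of named regions that kept their call. Of named shifts of use 119 fell short and 705 kept their call. Peak lists hold no depth, so a lost or gained peak can be a signal near the caller's threshold.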
